A study of Mus musculus with 2 samples.

Results

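Vwf, Thbd, Procr, Tfpi, Plat, F8 and F3 encode proteins with which the vessel wall starts, restrains or reverses blood clotting. These 7 genes were taken by symbol from the 31053 gene identifiers of the count tables, and each symbol matched 1 identifier. Their counts were read in mouse heart barcodes that carried the markers of endothelial cells, endocardium, mural cells (pericytes and smooth muscle) or fibroblasts. The measurement was droplet-based 3′ single-cell RNA sequencing, in which each unique molecular identifier (UMI) stands for 1 captured transcript, of heart cells freed with collagenase, with cardiomyocytes removed and CD45-positive leukocytes depleted on magnetic columns. One library came from db/+ mice, which carry 1 copy of the db mutation of the leptin receptor. The other came from db/db mice, which carry the mutation on each copy and are obese and diabetic, and these were given 1% salt. The series title calls the db/db mice with salt an HFpEF model, that is, one of heart failure in which the ejection fraction is preserved. The design text counts 4 male hearts per genotype without saying whether they were pooled, and the labels give neither age nor the duration of salt. Because the db/+ mice have no salt label, genotype and salt cannot be told apart. With 1 library per group no test between the groups was possible, and every value below describes these libraries.

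Tissue factor, the product of F3, is exposed when blood meets cells outside the vessel and binds factor VII to start the cascade. Factor VIII, the product of F8, is the cofactor of factor IX and circulates bound to von Willebrand factor, the platelet-binding protein that endothelium stores in Weibel-Palade bodies. Endothelium restrains clotting with thrombomodulin (Thbd), which turns thrombin towards protein C, with the endothelial protein C receptor (Procr), which presents protein C to that complex, and with tissue factor pathway inhibitor (Tfpi). Tissue plasminogen activator (Plat) starts the removal of fibrin by turning plasminogen into plasmin.

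RefSeq promoter windows on GRCm38.p6 were at hand for 4 of the 7 genes (F3, Procr, Tfpi and F8). Those of F3, Procr and Tfpi are shown because they lie at least in part before the annotated start of the gene. The F8 window, at chrX:75380042-75380291, lies within the annotated gene and is not shown. It held no match to the motifs searched, and the sequence before the annotated start of F8 was not searched. Each run ends at the last base before the annotated start of the gene. F3, on the plus strand, was read at chr3:121723287-121723536, Procr, also on the plus strand, at chr2:155750967-155751116, and Tfpi, on the minus strand, at chr2:84476776-84477009. Capitals mark matches, on either strand, to the AP-1 motif TGANTCA and the GC box GGGCGG.
F3: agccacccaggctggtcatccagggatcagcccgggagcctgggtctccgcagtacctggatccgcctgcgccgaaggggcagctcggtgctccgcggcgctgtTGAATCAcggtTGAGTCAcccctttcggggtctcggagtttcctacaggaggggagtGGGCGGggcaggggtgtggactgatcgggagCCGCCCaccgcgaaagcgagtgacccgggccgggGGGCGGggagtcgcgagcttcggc
Procr: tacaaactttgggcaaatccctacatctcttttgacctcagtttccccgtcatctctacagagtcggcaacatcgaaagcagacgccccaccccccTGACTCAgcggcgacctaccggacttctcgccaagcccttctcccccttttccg
Tfpi: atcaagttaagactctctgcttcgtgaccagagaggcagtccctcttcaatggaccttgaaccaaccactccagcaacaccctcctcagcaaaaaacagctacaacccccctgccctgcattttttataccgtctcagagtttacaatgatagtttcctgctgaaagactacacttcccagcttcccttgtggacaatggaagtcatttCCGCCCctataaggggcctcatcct
The F3 window held 2 AP-1 matches, at 146 to 140 and 135 to 129 bases before the start, and 3 GC boxes, the nearest at 24 to 19 bases. Procr held 1 AP-1 match at 54 to 48 bases before the start, and Tfpi 1 GC box at 25 to 20 bases. Of 32817 mouse windows of 250 bases, 6.75% held TGANTCA and 32.7% held GGGCGG. The stretches shown of Procr (150 bases) and Tfpi (234 bases) are shorter than these windows. The motifs of EGR1 (GCGGGGGCG, in 2.57% of windows), GATA factors (AGATAA, 9.99%) and ETS factors (CCGGAA, in 3944 of the windows) were searched too and had no match in the 3 stretches shown. A second window of Tfpi, at chr2:84474175-84474424, lies within the annotated gene and is not shown. It held 1 GC box and 1 GATA match. The stretch of F3 was the richest in G and C (70.0%), against 56.0% for Procr and 48.7% for Tfpi. In the annotation Vwf lies at chr6:125546774-125686679, Thbd at chr2:148404466-148408188, Plat at chr8:22757727-22782844 and F8 at chrX:75172715-75382615. F8 overlaps Gm8522 on the same strand, so reads of the overlap may have been counted for neither gene.

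The libraries held 5676 barcodes (db/+) and 4751 (db/db with salt), of which 4873 and 4099 were kept, with medians of 7047 and 7787 UMIs. Barcodes were put in classes by their marker UMIs, so each class name means "like" that cell type by its markers. Endothelial barcodes numbered 3135 and 2602 and were divided into arterial (365 and 352), capillary (366 and 340), venous (152 and 108), angiogenic (246 and 175) and other endothelial (2006 and 1627). Endocardial (51 and 51) and lymphatic endothelial (25 and 33) barcodes stood apart from these. Pericytes numbered 55 and 43, smooth muscle 61 and 59, and fibroblasts 1240 and 1097, the last divided into resident (98 and 104), matrix-activated (142 and 81), adventitial (126 and 100) and other (874 and 812). Not every class was free of other cells. Smooth muscle barcodes held a median of 48 and 46 UMIs of the endothelial marker list, beside 47 and 55 in endothelial barcodes, so their values include RNA of endothelial type. Endocardial barcodes carried fibroblast-list RNA at 3689 and 4233 CPM (UMIs per 1000000 UMIs of the class), of which Dcn gave 2879 and 3082 CPM, while Pdgfra was at 2.65 and 30.4 CPM. The libraries shared 7 barcode sequences, 5 of them among those kept.

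Levels are sums of UMIs over a class, as CPM, with exact Poisson 95% intervals that cover counting error only. Levels are compared between classes within a gene, never between genes.

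**Figure D1:**
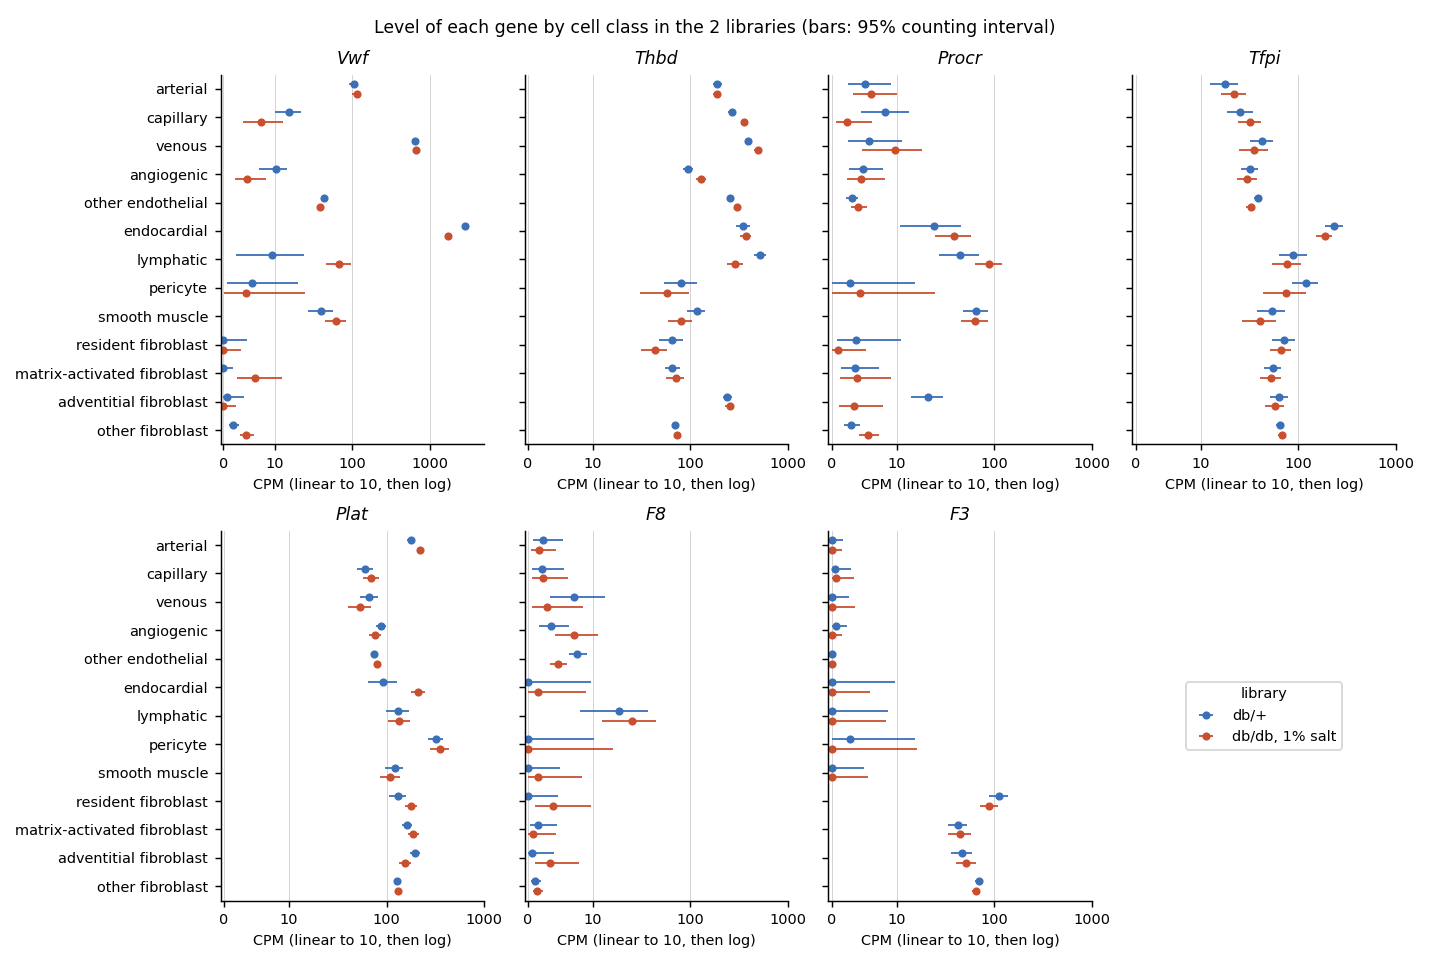
Level of each of the 7 genes (CPM, on an axis linear to 10 and logarithmic above) in 13 classes of barcodes, with 1 point per library and bars for exact Poisson 95% intervals. Vwf peaks in endocardial and venous barcodes, Plat in pericytes, and F3 in fibroblasts, in both libraries.

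F3, the starter of the cascade, was read almost entirely in fibroblasts. Fibroblast barcodes had 65.3 CPM (60.8 to 69.9) in db/+ and 63.0 (58.9 to 67.4) in db/db with salt. They held 97.0% and 98.3% of all F3 UMIs of the kept barcodes. Endothelial barcodes yielded 4 and 2 F3 UMIs, or 0.168 and 0.104 CPM, so that fibroblasts stood 388-fold (151 to 1428) and 605-fold (167 to 5005) above them. No F3 UMI was found in arterial, venous, endocardial, lymphatic or smooth muscle barcodes of either library. For the 51 endocardial barcodes a count of 0 still allows 7.94 and 4.80 CPM (3 counts), so F3 was not detectable there at this depth. By barcode, 37.5% and 43.6% of fibroblasts had an F3 UMI at median depths of 9637 and 12000 UMIs. In endothelium, at 5438 and 5423.5 UMIs, it was 0.0957% and 0.0769%. With every barcode thinned to 1500 UMIs the fibroblast shares were 9.02% and 8.66%, against 0.0339% and 0.0400% in endothelium.

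Among fibroblasts, F3 was highest in the resident class, at 111 CPM (88.8 to 136) and 88.8 (71.7 to 109). Other fibroblasts followed at 69.6 and 64.5 CPM, then adventitial at 46.6 and 51.3 and matrix-activated at 42.1 and 44.1. Resident exceeded matrix-activated fibroblasts 2.63-fold (1.93 to 3.60) and 2.01-fold (1.43 to 2.85), and adventitial fibroblasts 2.38-fold (1.71 to 3.33) and 1.73-fold (1.26 to 2.37). In each library the intervals separated resident from other fibroblasts, and matrix-activated fibroblasts from pericytes. The remaining neighbouring fibroblast classes in this order had overlapping intervals in at least 1 library. The resident class was not the highest with barcodes thinned or with classes taken from clusters.

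F8, whose protein is made mainly by endothelium, was scarce. Endothelial barcodes had 6.14 CPM (5.18 to 7.22, 146 UMIs) and 4.27 (3.397 to 5.30, 82 UMIs), and fibroblasts 1.05 and 1.76. Endothelium thus exceeded fibroblasts 5.85-fold (3.31 to 11.2) and 2.42-fold (1.52 to 3.99). It held 82.0% and 64.6% of all F8 UMIs. The gene was therefore mainly endothelial, but in db/db with salt fibroblasts contributed 24 of the UMIs. The highest level was in lymphatic endothelium, at 18.7 CPM (8.09 to 36.9) and 24.9 (12.4 to 44.5), from 8 and 11 UMIs, and in db/db with salt 8 of the 11 came from 1 barcode. Lymphatic barcodes stood 3.05-fold (1.29 to 6.17) and 5.83-fold (2.80 to 10.98) above the other endothelium. No F8 UMI was read in pericytes of either library, nor in db/+ endocardium or smooth muscle. F8 UMIs were seen in 3.70% and 2.73% of endothelial barcodes, against 1.05% and 1.91% of the deeper fibroblasts, and after thinning in 0.644% and 0.681% against 0.328% and 0.184%. No neighbours in the order of classes for F8 were separated in both libraries.

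Vwf, the platelet-binding protein and carrier of factor VIII, was highest in endocardial and venous barcodes. Endocardial barcodes had 2818 CPM (2651 to 2992) in db/+ and 1707 (1606 to 1812) in db/db with salt, and 48 of 51 had a Vwf UMI in each library. Venous barcodes came next, at 633 CPM (592 to 676) and 664 (615 to 716), then arterial at 104 (90.4 to 118) and 113 (99.7 to 127). These 3 classes and the one below them were separated from each other in both libraries. Endocardial exceeded venous levels 4.45-fold (4.07 to 4.88) and 2.57-fold (2.33 to 2.83), and venous exceeded arterial 6.11-fold (5.27 to 7.11) and 5.88-fold (5.09 to 6.80). Capillary barcodes had only 15.2 and 7.23 CPM, 41.6-fold (28.6 to 62.9) and 91.9-fold (52.2 to 179) below venous. Angiogenic barcodes had 10.2 and 4.57 CPM. Fibroblasts, which should lack Vwf, had 1.29 and 3.75 CPM, and in db/db with salt 31 of their 51 UMIs came from 1 barcode.

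The Vwf signal of endothelium sat in few barcodes. A UMI was seen in 14.2% and 12.99% of endothelial barcodes (5.93% and 5.13% after thinning), against 0.887% and 1.28% of fibroblasts (0.246% and 0.276%). The tenth of endothelial barcodes with most Vwf UMIs held 92.9% and 94.6% of them. Among venous barcodes 59.2% and 59.3% had a UMI, with at most 52 and 83 UMIs in a barcode. In capillary barcodes the share was 4.37% and 2.06%, and after thinning 1 of 345 and 3 of 321 barcodes, with intervals that overlap those of fibroblasts. Capillary Vwf could thus not be told from background after thinning, while the venous and arterial signal could. The 51 endocardial barcodes alone held 33.2% and 37.6% of all Vwf UMIs, and venous barcodes 27.6% and 24.0%. Smooth muscle barcodes had 39.9 and 61.4 CPM, and the part of their endothelial RNA in this was not tested.

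**Figure D2:**
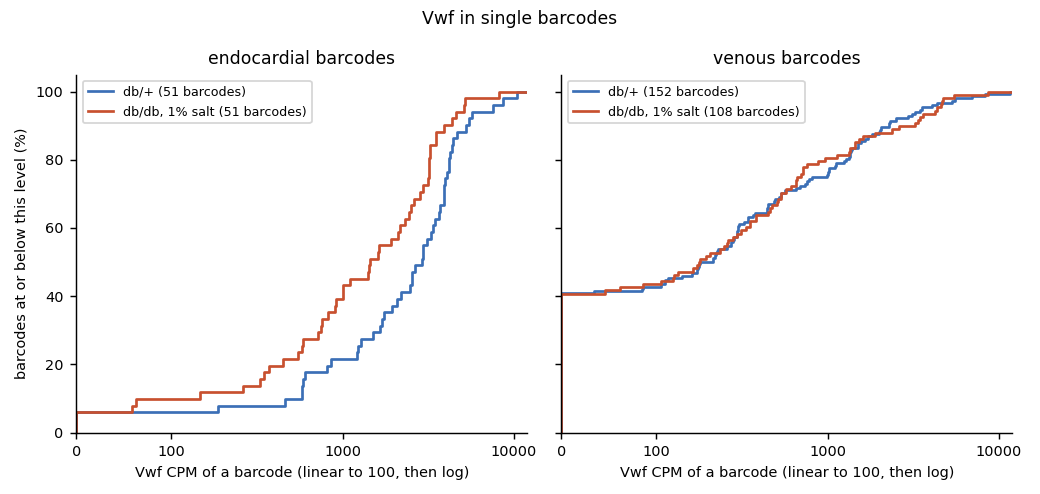
Share of barcodes (%) at or below each Vwf level (CPM, linear to 100 and logarithmic above), for the endocardial and venous classes, with 1 line per library. The endocardial line of db/db with salt (median 1451 CPM) runs left of that of db/+ (2901 CPM), while the venous lines lie close together and start with the barcodes that have no Vwf UMI.

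Thbd, the receptor that turns thrombin into an activator of protein C, was broad across endothelium and was not confined to it. Endothelial barcodes had 235 CPM (229 to 241) and 280 (273 to 288), with a UMI in 61.5% and 69.9% of barcodes and, after thinning, in 29.4% and 33.6%. Fibroblasts had 88.0 and 89.7 CPM, and 10.0% and 12.4% of thinned barcodes. Endothelium exceeded fibroblasts 2.67-fold (2.50 to 2.85) and 3.12-fold (2.93 to 3.32). Among endothelial classes the venous one was high, at 393 CPM (361 to 427) and 489 (447 to 534), and the angiogenic one low, at 93.9 (83.5 to 105) and 128 (114 to 143). Capillary barcodes (265 and 356 CPM) exceeded arterial ones (189 and 188) 1.40-fold (1.23 to 1.60) and 1.89-fold (1.67 to 2.14). Venous stood 2.08-fold (1.83 to 2.37) and 2.59-fold (2.28 to 2.96) above arterial. Vwf and Thbd were each highest in the venous class of blood endothelium, but in capillaries Thbd stood at 265 and 356 CPM, above its arterial level, and Vwf at 15.2 and 7.23 CPM, below its own.

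Lymphatic barcodes had the highest Thbd level in db/+ (515 CPM, 449 to 588) but not in db/db with salt (287, 240 to 342), and endocardial ones had 347 and 370 CPM. Adventitial fibroblasts, the class around larger vessels, had 239 CPM (214 to 266) and 252 (227 to 279), which is 3.73-fold (2.77 to 5.11) and 5.87-fold (4.30 to 8.18) above resident fibroblasts. In that class 69.8% and 90.0% of barcodes had a Thbd UMI. Other, matrix-activated and resident fibroblasts had between 43.0 and 72.7 CPM in either library. Adventitial fibroblasts were therefore above arterial endothelium (189 CPM, 171 to 208, and 188, 171 to 207), with separate intervals in both libraries. Pericytes had 80.4 and 56.9 CPM, but only 13.3 and 13.6 CPM when the margin required between marker lists was doubled, a change that lowered their endothelial-list RNA from 2940 to 724 CPM in db/+ and from 1905 to 964 CPM in db/db with salt. Smooth muscle had 116 and 79.4 CPM, and 136 and 74.5 with the margin doubled.

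Within arterial endothelium Thbd was seen in fewer of the barcodes with Vwf than of those without it in db/+. Among barcodes thinned to 1500 UMIs, 1 of 35 with a Vwf UMI also had a Thbd UMI in db/+ (2.86%, exact Clopper-Pearson 95% interval 0.0723 to 14.9), against 81 of 308 without Vwf (26.3%, 21.5 to 31.6). In db/db with salt it was 3 of 35 (8.57%, 1.80 to 23.1) against 78 of 306 (25.5%, 20.7 to 30.8), with intervals that overlap. Other endothelial barcodes went the opposite way in db/+, with Thbd in 36 of 80 of those with Vwf and 30.6% (28.5 to 32.8) of those without, and had 33.96% and 35.2% in db/db with salt. Venous barcodes did not show this in both libraries: Thbd was seen in 16 of 58 with Vwf and 37 of 94 without it in db/+, and in 21 of 37 and 36 of 71 in db/db with salt. All barcodes of a group come from 1 library, so these shares are a description without a test.

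Procr, the receptor that presents protein C, was low in blood endothelium, at 4.04 CPM (3.27 to 4.93) and 4.53 (3.63 to 5.59). Smooth muscle barcodes had 65.1 CPM (48.2 to 86.1) and 62.9 (45.3 to 85.0), 16.1-fold (11.2 to 23.0) and 13.9-fold (9.37 to 20.3) higher. The endothelial marker list was at 4487 and 4251 CPM in these barcodes and at 8666 and 10107 CPM in endothelial ones, and its part in the Procr level was not tested. With the margin doubled, smooth muscle had 58.1 and 47.1 CPM. Among these barcodes 37.7% and 35.6% had a Procr UMI, against 2.71% and 2.92% in endothelium and 3.31% and 5.01% in fibroblasts. Thinned, the shares were 6.78% and 9.09%, 0.678% and 0.601%, and 0.738% and 0.552% in the same order. Pericytes had 1 Procr UMI in each library, so the 2 mural classes differed in it.

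Procr was also found in lymphatic barcodes, at 44.5 CPM (26.8 to 69.5) and 88.2 (62.8 to 121), and in endocardial ones, at 23.8 (10.9 to 45.2) and 38.4 (24.6 to 57.2). These exceeded blood endothelium 11.02-fold (6.36 to 18.2) and 19.5-fold (12.99 to 28.7) in lymphatics and 5.91-fold (2.62 to 11.7) and 8.48-fold (5.16 to 13.5) in endocardium. Smooth muscle, lymphatic and endocardial intervals overlapped in at least 1 library, so no order among the 3 is given. Arterial, capillary, venous and angiogenic barcodes ranged from 2.41 to 9.76 CPM over both libraries, each from 4 to 15 UMIs.

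Tfpi, which blocks the complex of tissue factor and factor VII, was lowest in the blood endothelium and higher around it. Endothelial barcodes had 34.8 CPM (32.5 to 37.3) and 31.0 (28.6 to 33.6), and fibroblasts 63.2 (58.9 to 67.8) and 64.7 (60.5 to 69.1), a 1.81-fold (1.64 to 2.003) and 2.09-fold (1.88 to 2.32) difference. Endocardial barcodes were highest, at 233 CPM (187 to 287) and 186 (153 to 223), 6.69-fold (5.31 to 8.34) and 5.99-fold (4.87 to 7.32) above endothelium. Endocardium was thus high in both Vwf and Tfpi. Pericytes had 119 CPM (86.3 to 161) and 74.5 (43.4 to 119), or 173 and 88.3 with the margin doubled, and lymphatics 89.0 and 76.9. The 4 fibroblast classes lay close together, between 52.6 and 71.7 CPM. Arterial endothelium was lowest, at 17.6 (12.5 to 24.2) and 21.9 (16.3 to 28.8), 1.98-fold (1.43 to 2.81) and 1.42-fold (1.06 to 1.92) below all endothelium. The order of classes was nearly the same in the 2 libraries (Spearman's rho 0.98 over 13 classes). Of the neighbours in it, only endocardial barcodes and pericytes were separated in both.

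Plat, the plasminogen activator, was highest in pericytes, at 319 CPM (263 to 383) and 350 (278 to 436). A UMI was seen in 78.2% and 76.7% of them, and in 41.5% and 46.5% after thinning. They stood 3.79-fold (3.11 to 4.58) and 3.73-fold (2.94 to 4.66) above endothelium and 2.64-fold (1.99 to 3.51) and 3.20-fold (2.30 to 4.46) above smooth muscle. With the margin doubled, pericyte Plat was 498 and 387 CPM, while pericyte Thbd was 13.3 and 13.6 CPM. Arterial endothelium was second in the order, at 179 CPM (162 to 198) and 222 (204 to 242), separated from pericytes in each library. It exceeded capillary barcodes (60.3 and 69.9 CPM) 2.97-fold (2.40 to 3.70) and 3.18-fold (2.60 to 3.93). It exceeded venous barcodes (66.5 and 53.7 CPM) 2.69-fold (2.14 to 3.41) and 4.14-fold (3.13 to 5.58). Within blood endothelium Plat was thus highest in the arterial class, and Thbd in the venous class and then the capillary one. Neither gene was confined to these classes. Fibroblasts had 141 CPM (134 to 147) and 143 (137 to 150), spread over adventitial (196 and 155), matrix-activated (163 and 188), resident (130 and 178) and other fibroblasts (127 and 132). With classes taken from clusters pericyte Plat was 183 and 202 CPM and arterial endothelium was the highest class.

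The order of classes was compared between libraries by Spearman's rho over 13 classes, which share the library, the depth and the marker rule. It was 0.98 for Tfpi, 0.92 for Thbd, 0.86 for Vwf, 0.84 for F3, 0.82 for Plat, 0.61 for F8 and 0.48 for Procr. F8 and Procr, the genes with fewest UMIs in endothelium after F3, had the least stable order, while F3 itself had 0.84. Whether the number of UMIs has a part in this was not tested. Over 26 profiles (13 classes in 2 libraries, on the log2(CPM + 10) scale) the members' levels were only loosely alike. The highest Pearson correlation was between Vwf and Thbd (0.59) and the lowest between Vwf and F3 (−0.56). Among 6197 other genes the nearest profiles to Vwf were Rdx (0.94), Rfk (0.90) and Amigo2 (0.90), and to Thbd Tek (0.86), Ndrg1 (0.85) and Ramp2 (0.84). Procr was nearest to Thsd4 (0.90), Rgs7bp (0.83) and Itgb4 (0.82), and Tfpi to Meis2 (0.89), Lrig1 (0.88) and Blvrb (0.86). Plat had no close companion (Meaf6 0.80, Cul5 0.80 and Cystm1 0.79). F8 was nearest to Prkcq (0.91), Gmfg (0.89) and Tnfrsf11a (0.89), and F3 to Gpm6b, Pcdh9 and Smoc2 (0.99 each), of which Smoc2 is in the marker list of resident fibroblasts.

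The difference between the libraries was then taken for each gene and class as log2 of the ratio of CPM + 10 (db/db with salt over db/+), with a counting interval; this scale understates the ratios of low genes. No member reached 1.5-fold in the pooled endothelial barcodes, where 4 of 7 members had a mean of at least 10 CPM. Of all 8259 genes with that mean there, 0.533% were at least 1.5-fold higher and 1.53% lower. Thbd was 0.24 higher (0.19 to 0.29) and Plat 0.14 higher (0.06 to 0.23), beside a median over all genes of 0.05. Vwf differed by −0.05 (−0.14 to 0.04), Tfpi by −0.13 (−0.25 to −0.01), F8 by −0.18 (−0.31 to −0.04), Procr by 0.05 and F3 by −0.01. The Thbd difference was seen in capillary (0.42, 0.25 to 0.59), angiogenic (0.41, 0.19 to 0.62), venous (0.31, 0.14 to 0.48) and other endothelial barcodes (0.24, 0.18 to 0.30). It was not seen in arterial ones (0.00, −0.19 to 0.18). Vwf was lower in capillary (−0.55, −1.02 to −0.04) and angiogenic barcodes (−0.47, −0.84 to −0.06), and Procr in capillary barcodes (−0.55, −0.98 to −0.05), each from few UMIs (28 and 12, 32 and 11, and 15 and 4). With a pseudocount of 1 CPM these 3 were −0.98, −1.005 and −1.42, past 1.5-fold. Of them only Vwf in capillary barcodes had a mean of at least 10 CPM, so the pseudocount of 10 CPM decides the call of that one alone. F8 was lower in other endothelial barcodes (−0.27, −0.44 to −0.10, 116 and 54 UMIs), at a mean under 10 CPM. With a pseudocount of 1 CPM it too was past 1.5-fold there, and so were some further ratios with a mean under 10 CPM. Thbd was therefore the sole member whose level was higher in db/db with salt in 4 of the 5 blood endothelial classes with an interval above 0, at less than 1.5-fold. With the pseudocount of 10 CPM no member was past 1.5-fold in any of the 5 blood endothelial classes. The share of all genes higher and lower by that fold there was 1.23% and 1.53% (arterial), 2.25% and 2.18% (capillary), 3.63% and 3.10% (venous), 1.14% and 1.52% (angiogenic) and 0.584% and 1.92% (other endothelial). Nor was a member past it in smooth muscle (6.28% and 6.78% of all genes), pooled fibroblasts (0.599% and 0.956%), resident fibroblasts (5.25% and 3.35%) or other fibroblasts (0.647% and 0.959%).

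**Figure D3:**
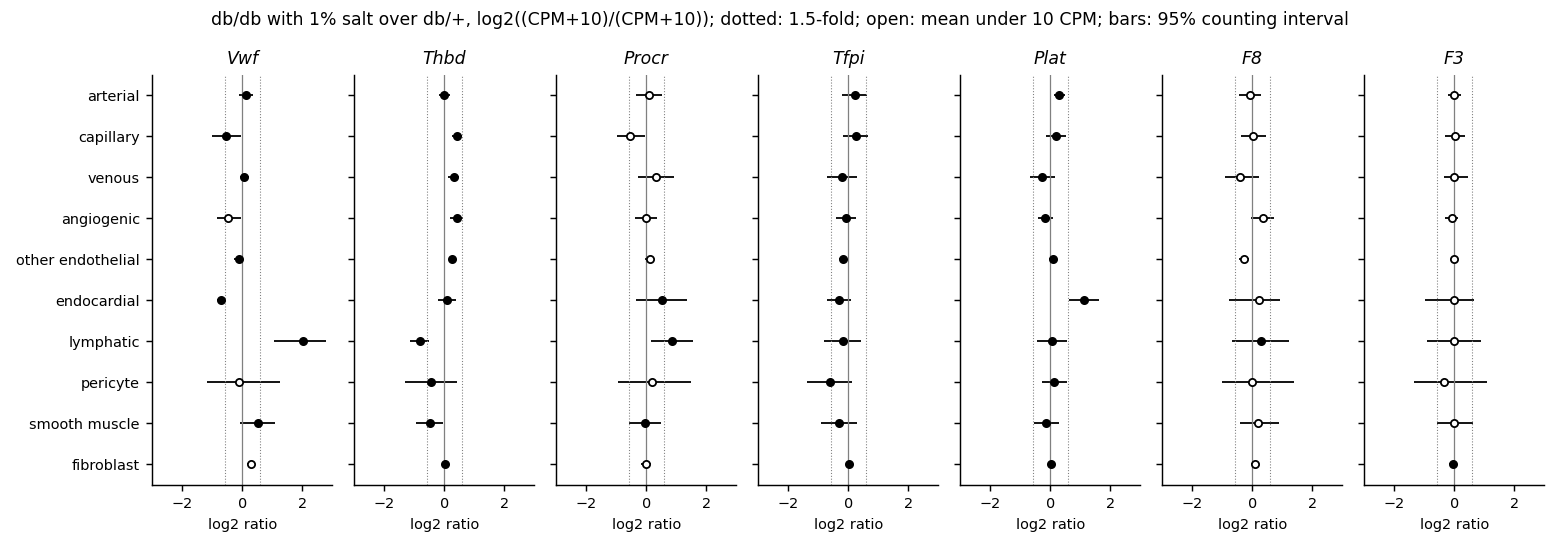
Log2 ratio of db/db with salt over db/+ of each gene in the endothelial and mural classes and in all fibroblasts, as (CPM + 10) ratios with 95% counting intervals, dotted lines at 1.5-fold and open points where the mean is under 10 CPM. Points beyond the lines fall in the endocardial, lymphatic and pericyte classes, and none in a blood endothelial class.

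Over the 13 classes, 55 of 91 ratios had a mean of at least 10 CPM, the floor that the shares of all genes also use, and of these 3 were at least 1.5-fold higher and 4 lower in db/db with salt. Under that floor 1 more was higher (Vwf in matrix-activated fibroblasts). Endocardium gave one in each direction, where 10.6% of all genes were higher and 7.88% lower by that fold. Vwf was lower there by −0.72 (−0.84 to −0.60), and its quartiles over single barcodes were 1258, 2901 and 4001 CPM in db/+ and 585, 1451 and 3167 in db/db with salt. Plat was higher by 1.11 (0.61 to 1.63), from 35 UMIs in db/+ and 132 in db/db with salt. The endocardial marker list was lower too, at 5085 and 3575 CPM (Npr3 2407 and 1586), the fibroblast list was at 3689 and 4233 CPM, and median depth was 7185 and 10320 UMIs. The part of these in the Vwf and Plat ratios was not tested.

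Lymphatic barcodes, 25 and 33 in number, gave 3 of these ratios, with 9.69% of all genes higher and 8.90% lower. Vwf was higher by 2.01 (1.06 to 2.78), from 4 and 30 UMIs, of which 11 came from 1 barcode. Procr was higher by 0.85 (0.15 to 1.55) and Thbd lower by −0.82 (−1.13 to −0.51). Of the 7 lymphatic markers in these barcodes, Prox1, the defining lymphatic factor, was at 656 and 462 CPM, Ccl21a at 6698 and 4765 and Pdpn at 218 and 195. The Ccl21a level is of another identifier of that symbol than the one counted for the class, whose marker list came to 5378 and 5526 CPM without it. Mmrn1 was at 2428 and 2396 CPM, Flt4 at 660 and 661, Lyve1 at 986 and 1251 and Reln at 431 and 561. The part of these in the ratios was not tested. Tfpi in pericytes was lower by −0.61 (−1.39 to 0.13), where 14.5% of genes were lower and 15.8% higher, and its interval includes 0. Procr in adventitial fibroblasts was lower by −1.20 (−1.66 to −0.65), where 2.43% of genes were higher and 2.18% lower, from 29 UMIs, 11 of them in 1 barcode, against 5 UMIs. Vwf in matrix-activated fibroblasts was higher by 0.70 (0.26 to 1.15), where 1.79% of genes were higher and 2.62% lower, but rests on 8 UMIs in db/db with salt, 7 of them in 1 barcode. At the same floor the count was 1 of 5 members in each direction in endocardium, 2 of 6 higher and 1 of 6 lower in lymphatics, and 1 of 3 lower in pericytes, counts too small to set apart from the shares of all genes given above.

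Within db/+ endothelium, Vwf differed between barcodes with and without an interferon signature, which was itself unequal between the libraries. The interferon-high barcodes had at least 0.5% of their UMIs in a list of 12 interferon-response and MHC class II genes. The class II genes of that list are Cd74, H2-Ab1, H2-Aa and H2-Eb1. Interferon-high barcodes made up 574 of 3135 endothelial barcodes (18.3%) in db/+ and 34 of 2602 (1.31%) in db/db with salt. In db/+, those that also had at least 5 UMIs of MHC class II genes (194 barcodes) had 314 Vwf CPM (291 to 339). Those with fewer class II UMIs (380 barcodes) had 47.0 CPM (38.6 to 56.8), and the remaining 2561 had 54.4 CPM (51.2 to 57.8). Over all endothelial classes together, high Vwf thus went with class II RNA within the interferon-high barcodes of db/+. These barcodes were themselves picked partly on class II UMIs. Taken without the class II split, the interferon-high barcodes of db/+ had 175 Vwf CPM (163 to 187) and the rest 54.4, a log2 ratio of 1.52 (1.40 to 1.64). In db/db with salt this comparison gave no such difference. The 34 interferon-high barcodes had 69.6 Vwf CPM (36.0 to 122, 12 UMIs) and the rest 74.1 (70.3 to 78.1), a log2 ratio of −0.08 (−0.87 to 0.65). F8 there had 0 UMIs against 4.31 CPM. The median depths of the 3 db/+ sets were 9264, 4460 and 5369 UMIs in that order. Venous barcodes made up 8.89% of the interferon-high and 3.94% of the remaining barcodes. They were 41 of the 194 with at least 5 class II UMIs and 10 of the 380 with fewer. Of the 665 Vwf UMIs of the 194 barcodes, 423 were in venous ones. The part of depth or of the venous share was not tested. Within venous barcodes alone Vwf was at 896 CPM (41 barcodes), 1394 (10) and 447 (101), and there the highest value was in the set with few class II UMIs. Other endothelial barcodes had 153 CPM (133 to 176, 118 barcodes), 12.7 (258) and 35.2 (1630), highest in the set with at least 5 class II UMIs. Arterial barcodes had 146 CPM (30), 83.1 (23) and 99.4 (312), with overlapping intervals. Capillary barcodes had 0 CPM (4), 23.1 (72) and 13.6 (290). Without the interferon-high barcodes the endothelial Vwf level was 54.4 CPM in db/+ and 74.1 in db/db with salt, a log2 ratio of 0.38. In the venous class it was 0.56. F8 was at 11.8, 10.8 and 4.96 CPM in the 3 sets of db/+ endothelial barcodes, so its level was similar in the 2 interferon-high sets, while Thbd was at 290, 219 and 231.

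**Figure D4:**
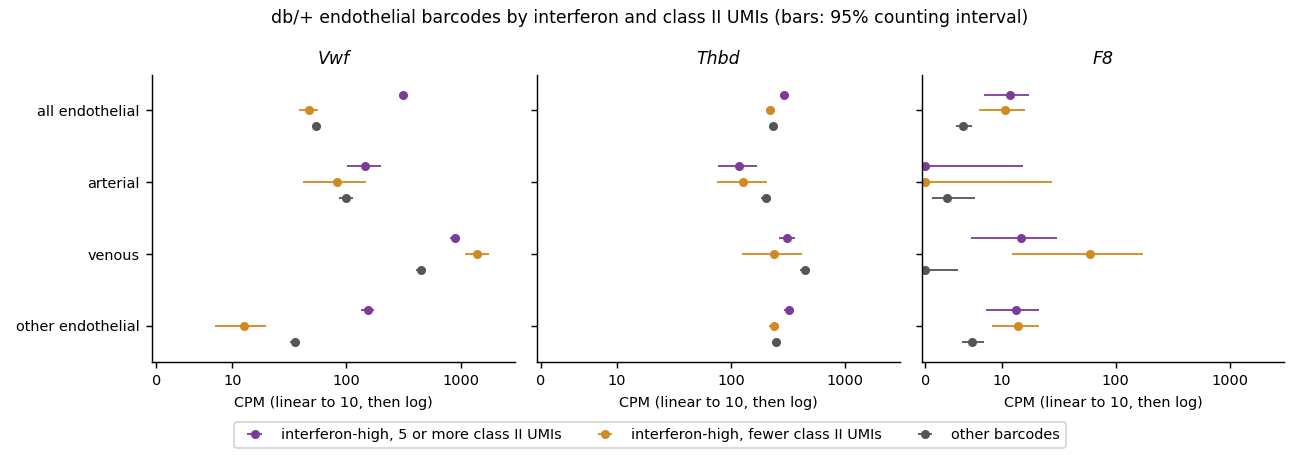
Levels of Vwf, Thbd and F8 (CPM, linear to 10 and logarithmic above) in db/+ endothelial barcodes and 3 of their classes, split into interferon-high with at least 5 MHC class II UMIs, interferon-high with fewer, and other barcodes, with exact Poisson 95% intervals. Over all endothelial barcodes Vwf is highest in the first set (314 CPM), as in the arterial and other endothelial classes, and in the venous class in the second (1394 CPM).

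The rest of the clotting system was read from 63 genes in 6 lists, with calls made among genes with a mean of at least 10 CPM. In pooled endothelium none of them was past 1.5-fold. Of 17 clotting factor and fibrin genes, 9 had no UMI in endothelium and 1 had a mean of at least 10 CPM. F7, F10 and F2, which the liver makes, had at most 16 UMIs in either library, and Proc and Plg had 0. Most of the circulating factors were therefore at or near 0 in these barcodes. Of 11 natural anticoagulants 5 passed that mean in endothelium, with a median log2 ratio of 0.13 beside 0.05 for all genes. Pros1, the cofactor of activated protein C, was at 85.5 and 94.1 CPM. Entpd1, the enzyme that removes platelet-activating ADP, was at 59.1 and 86.5 CPM (0.48, 0.39 to 0.57). In capillary barcodes Entpd1 was the 1 listed gene past 1.5-fold with a mean of at least 10 CPM, at 24.997 and 75.3 CPM (1.28, 0.90 to 1.67), where 2.25% of all genes were higher. Below that mean Plau, urokinase, the second plasminogen activator, was at 2.17 and 9.03 CPM (0.64, 0.15 to 1.08), from 4 and 15 UMIs. A UMI of Entpd1 was seen in 10.1% and 26.8% of capillary barcodes, so this difference was not carried by a single barcode.

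Of the fibrinolysis list, Anxa2, a surface receptor of Plat and plasminogen, was at 606 and 532 CPM in fibroblasts (−0.18) and at 471 and 475 CPM in endothelium (0.01). Thbs1 was at 217 and 193 CPM in fibroblasts (−0.16). Plat itself was at 141 and 143 CPM in the fibroblast barcodes. Vkorc1, which recycles the vitamin K that clotting factors need, was at 187 and 147 CPM there (−0.32).

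Of the 12 genes of Weibel-Palade bodies and factor VIII handling, 7 were measured in endothelium with a median of 0.01, and 9 in venous barcodes. Selp (P-selectin), which is stored with von Willebrand factor, was the 1 past 1.5-fold in venous barcodes, at 32.9 and 12.7 CPM (−0.92), where 3.10% of genes were lower. Vwf in the same barcodes was at 633 and 664 CPM, so the lower level was in Selp and not in Vwf. Tfpi2, a relative of Tfpi, was the 1 anticoagulant past that fold there, at 25.8 and 10.7 CPM (−0.79). In endocardium, where 10.6% of all genes were higher and 7.88% lower, 1 of 10 measured genes of the Weibel-Palade list was higher, Lrp1, a clearance receptor of factor VIII (7.94 and 48.0 CPM), of whose 30 UMIs in db/db with salt 12 and 9 came from 2 barcodes. Angpt2, also stored in these bodies, was the 1 lower, at 31.8 and 17.6 CPM (−0.60, −1.45 to 0.29), and its interval includes 0.

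The flow and endothelial transcription factors include Klf2 and Klf4, which respond to shear stress and are known to raise Thbd. In endothelium all 7 were measured and none was past 1.5-fold, with a median of 0.06 (Klf2 1892 and 1733 CPM). In endocardium, against 10.6% of all genes higher and 7.88% lower, Nos3 was higher (156 and 280 CPM) and Gata2 (215 and 138) and Hhex (103 and 59.2) lower. In smooth muscle, where 6.78% of all genes were lower, 3 of 7 were: Klf2 (1478 and 900 CPM), Klf4 (800 and 434) and Erg (57.1 and 30.0). Erg is an endothelial factor, and the smooth muscle barcodes held endothelial RNA as given above. Thbd in these barcodes was at 116 and 79.4 CPM. In pericytes Klf2 was at 555 and 232 CPM and Klf4 at 244 and 127, beside endothelial-list RNA at 2940 and 1905 CPM. Whether the endothelial RNA in mural barcodes has a part in these values was not tested.

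**Figure D5:**
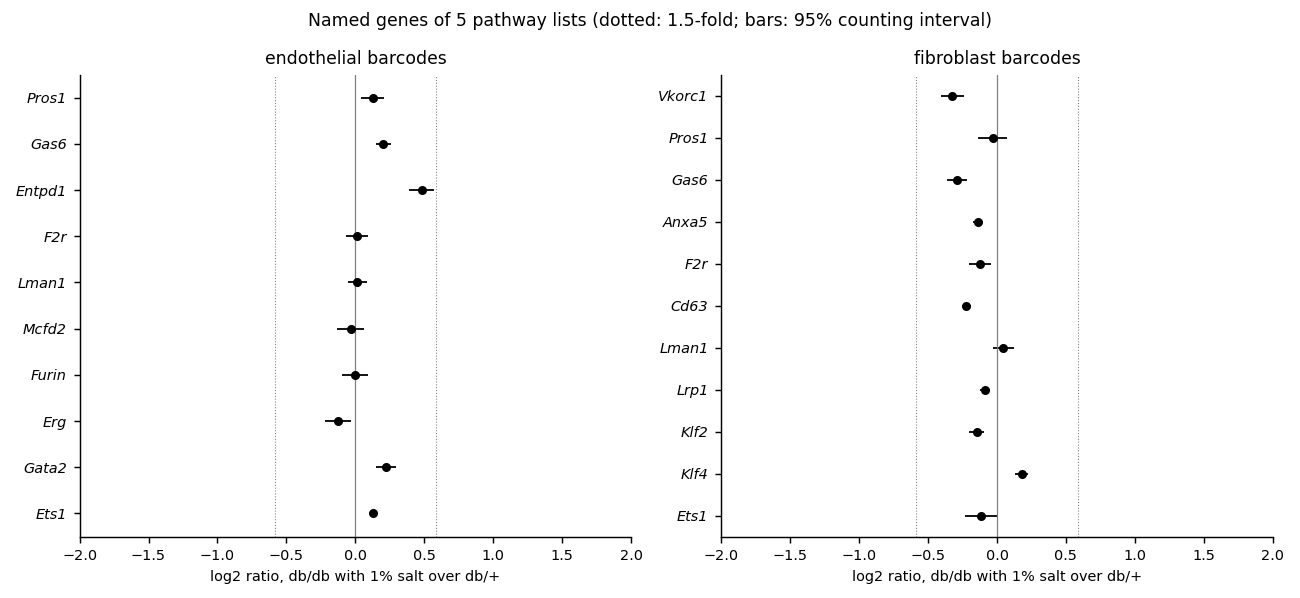
Log2 ratio of db/db with salt over db/+ of the named genes of 5 pathway lists (all but the fibrinolysis list) in endothelial and in fibroblast barcodes, on the (CPM + 10) scale with 95% counting intervals and dotted lines at 1.5-fold. All points lie between the lines, and Entpd1 (0.48) stands highest in endothelium.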

How the data were processed

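The deposited tables hold whole-number UMI counts per gene and barcode, per the file headers, for 1 library of each group, made with Cell Ranger 6.0.2 on mm10 (GRCm38), with Seurat also named, per the submitters' processing notes. The members, the marker and pathway lists and the limits below were chosen with earlier results of these data known, and the class limits were set after the counts had been seen. Barcodes with over 10% mitochondrial UMIs (609 and 544) or under 500 genes (289 and 165) were left out, and Scrublet doublets (77 of 5336 and 49 of 4538, called by scanpy 1.11.5) were removed. A barcode took the class of the marker list with at least 5 UMIs, 3 detected markers and 3 times the UMIs of any other list. The margin over the fibroblast list was not asked of endocardial barcodes. Endothelial and fibroblast subclasses needed a marker share of 2 times the class mean (capillary, 1) and 1.5 times the next share. No member is in a marker list. Just under and just over the venous limit (1.5 to 2 and 2 to 2.5 times the mean) lay 309 and 193 barcodes in db/+ and 245 and 164 in db/db with salt.

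UMIs were summed per class and library and scaled to the class total (CPM), with exact Poisson 95% intervals. Ratios were log2 of CPM + 10, called at 1.5-fold among genes with a mean of at least 10 CPM. Shares were also taken with each barcode thinned to 1500 UMIs, which left out 260 and 130 shallower barcodes. The calculations were tested on simulated data. Beside the 7 members, pathway genes were named where they were at least 1.5-fold apart or among the 3 of their list with the largest ratios in a class; 1 result of the fibrinolysis list is not reported here. Promoter windows came from RefSeq (GRCm38.p6), and gene positions from GENCODE M21, which held 31011 of the 31053 identifiers. Python 3.11.15, numpy 2.4.6, scipy 1.17.1, pandas 2.3.3 and edgeR 4.0.16 (TMM alternative) were used.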

Additional observations from a re-analysis of the deposited data

Results flagged for a closer look

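A few barcodes outside the vessel and fibroblast classes carried members above the limit that a count of 0 allows. Schwann-like barcodes (6 in db/+ and 2 in db/db with salt) had 5 F3 UMIs in each library, which is a level of 211 CPM (interval 68.4 to 492) in the former and of 525 CPM (interval 171 to 1226) in the latter. In db/+ they also had 4 Plat UMIs, or 169 CPM (45.9 to 431). Cardiomyocyte-like barcodes of db/db with salt (3) had 5 Tfpi UMIs, or 339 CPM (110 to 790).

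The ratio between libraries ran in opposite directions in different classes for Vwf and Procr, and the difference between classes was not tested. Vwf stood at 2.01 in lymphatic barcodes and 0.70 in matrix-activated fibroblasts on the log2 scale, but at −0.72 in endocardial ones. Procr stood at 0.85 in lymphatic barcodes and −1.20 in adventitial fibroblasts.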

How the results depend on the processing

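No paired analysis was possible because each group has 1 library. No ratio past 1.5-fold changed sign, and in pooled endothelium no member passed that fold under any of 12 alternatives. Over these the log2 ratio ran from −0.18 to 0.38 for Vwf, 0.16 to 0.27 for Thbd, −0.07 to 0.14 for Procr, −0.32 to −0.07 for Tfpi, 0.06 to 0.22 for Plat, −0.44 to 0.0022 for F8 and −0.0812 to 0.0058 for F3. The values that moved by more than the counting interval were Vwf at 0.38 without interferon-high barcodes, −0.18 with Leiden clusters and −0.14 thinned, Thbd at 0.16 with TMM scaling, Tfpi at −0.32 thinned, F8 at −0.44 with a pseudocount of 1 CPM and 0.0022 thinned, and F3 at −0.0812 with a pseudocount of 1 CPM. In the small classes, clusters gave 0.49 for endocardial Plat, 0.40 for lymphatic Vwf, −0.53 for adventitial Procr and −0.21 for pericyte Tfpi, all short of 1.5-fold, and adventitial Procr was −0.41 with a pseudocount of 50 CPM and −0.93 without its top barcode. Vwf in matrix-activated fibroblasts was 0.11 without its top barcode and 0.22 with clusters. Endocardial Vwf stayed between −0.66 and −0.87. Requiring the fibroblast margin of endocardial barcodes left too few of them for a value, and clusters held no capillary or resident fibroblast class. Genes past 1.5-fold in endothelium numbered 44 higher and 126 lower, against 87 higher with a pseudocount of 1 CPM, 13 and 56 with 50 CPM, 25 and 73 with a mean of at least 50 CPM, and 30 and 159 with TMM. In fibroblasts 52 and 83 became 114 and 132, 12 and 30, 25 and 43, and 47 and 93 in that order. With 25 to 61 barcodes in a small class, depth limits what can be told apart there. The cause of these shifts was not tested.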

Other observations

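Mural barcodes in which neither the pericyte nor the smooth muscle list led by the required margin (26 in db/+ and 16 in db/db with salt) entered no comparison. Procr, the protein C receptor, was at 68.7 CPM (40.7 to 109) and 131 CPM (81.4 to 201) in them, near or above its smooth muscle level. Tfpi was at 99.2 (64.8 to 145) and 188 CPM (127 to 268), and F3 had no UMI there, which allows up to 14.1 and 23.1 CPM by the exact Poisson interval. Barcodes with mixed markers (271 and 190) had F3 at 4.95 and 2.94 CPM and Procr at 18.8 and 17.3 CPM.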
